A study of Mus musculus with 8 samples.

Results

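Fibroblast growth factor (FGF) receptors and the genes that ERK signalling induces to restrain them were examined in tibialis anterior (TA) muscle, a fast hindlimb muscle, of mice with and without Klotho. The set comprised 8 genes, picked by symbol, with no threshold on measured values, though earlier results of these data were known: the receptors *Fgfr1* and *Fgfr4*, the adaptor *Frs2*, the Sprouty inhibitors *Spry1*, *Spry2* and *Spry4*, the phosphatase *Dusp6* and the ETS transcription factor *Etv5*. All 8 were found among the 12551 genes with deposited counts. RNA from whole TA muscle of male mice, 7 weeks old, was sequenced in 4 WT mice and 4 mice homozygous for a null Klotho allele (KL-/-), littermates from heterozygous parents on a mixed background. The mutation is carried in every tissue, so the muscle data do not separate loss of Klotho in muscle from loss elsewhere. *Kl* itself was not analysed here, so the counts do not check the genotypes, which the study determined by PCR. The study also reported that Klotho protein was undetectable in kidney and muscle of KL-/- mice by immunoblot. By qRT-PCR it found no detectable *Kl* mRNA in their muscle. The labels give 1 library, KL-/- replicate 3, a different batch date from the other 7, so that date cannot be told apart from that mouse.

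FGF receptors are tyrosine kinases that bind FGFs together with heparan sulfate or with a Klotho protein. Klotho turns FGFR1 into a high-affinity receptor for FGF23, the phosphate-regulating hormone made by bone. Activated receptors phosphorylate the docking protein FRS2, which recruits GRB2 and SOS and switches on RAS, RAF, MEK and ERK. ERK signalling induces the Sprouty proteins, which dampen RAS and RAF activation, and DUSP6, which dephosphorylates ERK in the cytoplasm. It also induces PEA3-family ETS factors such as ETV5. The transcripts of these feedback genes are therefore widely used as readouts of FGF signalling, although other receptor tyrosine kinases induce them as well.

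Of the 8 genes, *Etv5* alone passed the test between genotypes, and it was higher in KL-/- muscle by 1.33-fold (95% confidence interval 1.12 to 1.58, n = 4 per genotype). The other 7 did not pass, and none was called lower. Genes were called at an FDR under 0.05 in edgeR's quasi-likelihood test, adjusted over all 12551 genes. By that rule 1 of 8 genes was called, 12.5%, against 14.0% of all genes, so the share of the set called was close to the background. In the upward direction the background was 7.35% of all genes, and in the downward direction it was 6.67%. The split depended on the scaling: with scaling to library totals alone, 0 of the 8 genes were called higher and 1, *Spry1*, lower, and over all genes 492 were higher and 2127 lower against 922 and 837. The median log2 fold change of KL-/- over WT was −0.041 over the set and −0.016 over all genes.

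The libraries held between 20860262 and 29273758 counts, and the 8 genes between 70 and 1951 counts per library. Levels are given in CPM, the counts scaled to a common library size after TMM adjustment, where 3 counts correspond to 0.102 to 0.144 CPM, and errors are SD over the 4 mice. The counts were made per gene, so splice forms of *Fgfr1* and of the other genes were not resolved. In RNA from whole muscle, fewer cells of a type and less RNA per cell cannot be told apart.

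**Figure D1:**
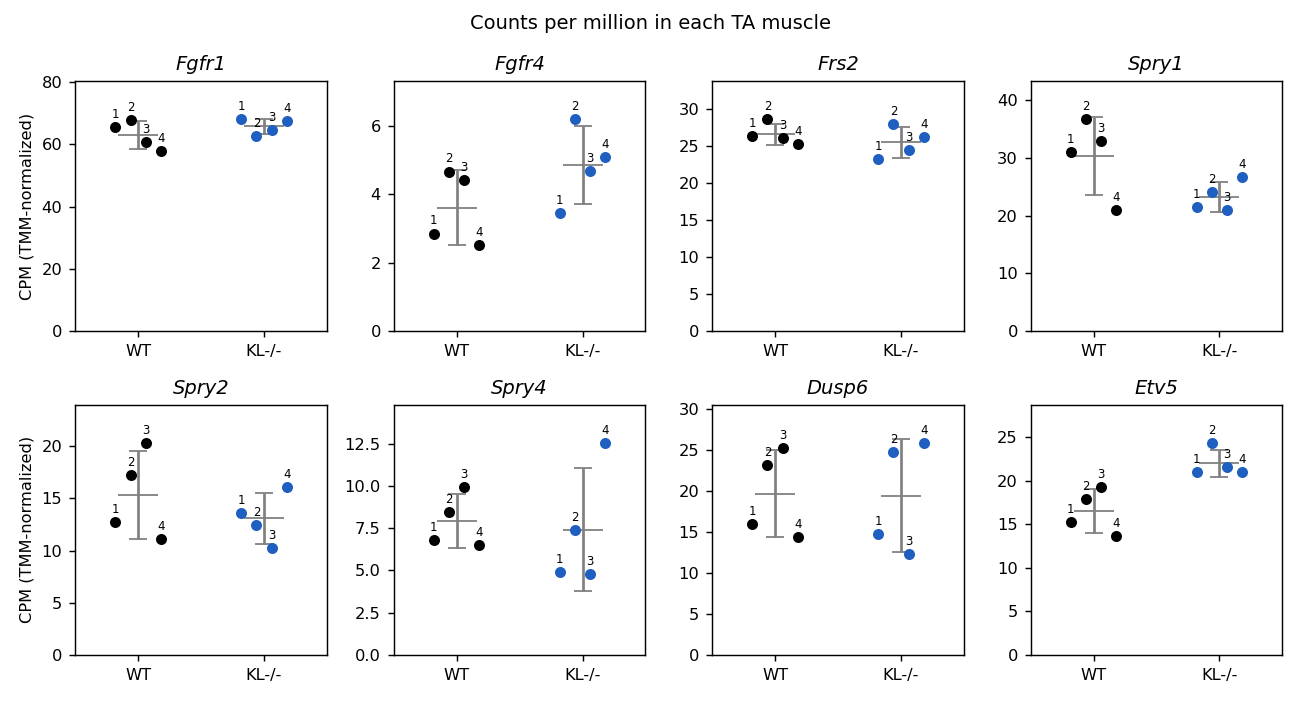
CPM of the 8 genes in each of the 8 samples, by genotype, with the mean and SD (n = 4). *Etv5* is the gene whose WT (13.7 to 19.2 CPM) and KL-/- (21.0 to 24.3 CPM) samples do not overlap; the other 7 overlap.

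The sequence before the start of transcription is shown for the gene that passed the test, *Etv5*, and for a pair of feedback genes that did not, *Spry1* and *Dusp6*. RefSeq on GRCm38.p6 gave an upstream sequence for 6 of the 8 genes. The *Etv5* stretch lies at chr16:22439720-22439820 on the minus strand, cut to the 101 bases outside the longest GENCODE first exon. The *Spry1* stretch lies at chr3:37639697-37639946 and the *Dusp6* stretch at chr10:99262981-99263230, both on the plus strand and 250 bases long. Capitals mark the GC box GGGCGG, searched on both strands and bound by SP1-type factors.
Etv5: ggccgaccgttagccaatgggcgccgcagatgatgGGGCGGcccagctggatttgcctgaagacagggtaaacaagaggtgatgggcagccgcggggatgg
Spry1: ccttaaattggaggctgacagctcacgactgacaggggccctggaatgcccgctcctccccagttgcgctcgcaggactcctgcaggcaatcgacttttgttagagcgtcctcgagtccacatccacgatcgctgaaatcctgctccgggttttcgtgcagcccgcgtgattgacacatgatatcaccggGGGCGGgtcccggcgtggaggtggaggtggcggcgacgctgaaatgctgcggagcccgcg
Dusp6: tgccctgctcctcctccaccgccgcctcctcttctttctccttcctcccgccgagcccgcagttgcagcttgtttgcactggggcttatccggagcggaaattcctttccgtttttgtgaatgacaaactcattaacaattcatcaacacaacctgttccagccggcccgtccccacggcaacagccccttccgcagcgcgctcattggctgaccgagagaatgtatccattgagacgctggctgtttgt
The GC box was found in the *Etv5* and *Spry1* stretches and not in that of *Dusp6*, and the full 250-base window of *Etv5* holds it too, as do 57.1% of such windows at 12265 starts of counted genes. CCGGAA, a core sequence of ETS factors, was found on neither strand in the 3 stretches or in the full window of *Etv5*. Of the 6 genes with a sequence, the 250-base windows of *Frs2* and *Fgfr4* hold it, as do 21.0% of all windows. The cAMP response element TGACGTCA was also not found in the 3 stretches and is in 2.52% of windows; no match overlapped a match of another motif. GC bases made up 71.2% of the full 250-base window of *Etv5*, 62.4% of that of *Spry1* and 56.4% of that of *Dusp6*, with a median of 60.0% over all windows. Another RefSeq start of *Etv5* has its window at chr16:22438369-22438618. That window holds 0 GC boxes and 0 ETS cores, and 62.0% of its bases are GC. These matches describe letters in a window and not binding.

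*Fgfr1* is a receptor that pairs with Klotho to bind FGF23 and had the highest mean per length of the 8 genes, although its WT samples overlapped those of *Spry1*. It lies at chr8:25518759-25575718 on the plus strand. The 4 WT samples read 65.5, 67.8, 60.7 and 57.7 CPM, and the 4 KL-/- samples read 68.0, 62.7, 64.7 and 67.4 CPM. The means were 62.9 ± 4.57 CPM in WT and 65.7 ± 2.46 CPM in KL-/- (SD, n = 4 each), and the genotypes overlapped. The log2 fold change of *Fgfr1* was 0.06 ± 0.07 (SE), with an FDR of 0.539 (edgeR). The interval of the fold, 0.944 to 1.16, was the narrowest of the 8 genes on the log scale. With scaling to library totals alone the log2 fold change of *Fgfr1* was −0.054. That scaling moved the median of all genes from −0.016 to −0.13, and measured from the median *Fgfr1* stood at 0.079 and 0.080. A change of scaling shifts all genes by nearly the same amount, so values measured from the median stay alike by construction. An antisense gene on the other strand, *Gm16159*, overlaps 2.49% of the exonic bases counted for *Fgfr1*, and strand use in the counting is not stated.

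*Fgfr4*, a receptor expressed in muscle precursors and regenerating fibres, was much scarcer and rested on 70 to 135 counts per library. It lies at chr13:55152818-55168759 on the plus strand. WT replicates read 2.86, 4.67, 4.42 and 2.51 CPM, and KL-/- replicates read 3.45, 6.20, 4.68 and 5.09 CPM. The KL-/- mean of *Fgfr4* was 1.34-fold that of WT, a ratio about as large as that of *Etv5*, but its samples overlapped and the interval of 0.923 to 1.95 included no change (log2 fold change 0.42 ± 0.24 SE, edgeR FDR 0.251).

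The receptors were also compared with each other within each sample, per length of counted exons. *Fgfr1* was 11.3-fold above *Fgfr4* in WT and 8.65-fold in KL-/-. The log2 ratio of *Fgfr4* to *Fgfr1* averaged −3.49 ± 0.41 in WT and −3.11 ± 0.40 in KL-/- (SD, n = 4 each). The difference of 0.38 did not pass a two-sided exact permutation test (p = 0.2), in which 70 relabelings allow no p below 0.0286, and it ranged from 0.23 without KL-/- replicate 2 to 0.55 without KL-/- replicate 1. Among the 3 receptors analysed, *Fgfr1* made up 87.5% ± 1.93 of the summed level per length in WT and 81.9% ± 2.50 in KL-/-, *Fgfr4* 7.96% ± 2.07 and 9.78% ± 2.76, and *Fgfr3* 4.57% ± 1.09 and 8.29% ± 4.94. *Fgfr2* was not analysed here. The *Fgfr1* shares of the genotypes did not overlap, with a lowest WT value of 85.0% and a highest KL-/- value of 84.5%; this was noticed after the values were seen and was not tested.

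*Frs2*, the docking protein that links FGF receptors to the RAS pathway, varied little between samples. It lies at chr10:117070127-117148474 on the minus strand. WT samples read 26.3, 28.6, 26.2 and 25.2 CPM and KL-/- samples 23.2, 28.0, 24.5 and 26.3 CPM. The means of *Frs2* were 26.6 ± 1.44 and 25.5 ± 2.07 CPM, the samples overlapped, and the log2 fold change was −0.061 ± 0.08 (SE) with an edgeR FDR of 0.613. Its paralog *Frs3* did not pass either (log2 fold change 0.10, FDR 0.531).

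*Spry1*, the Sprouty gene known to hold muscle stem cells quiescent, was the most abundant Sprouty. It lies at chr3:37639947-37644599 on the plus strand. WT replicates read 30.9, 36.7, 32.9 and 20.9 CPM, and KL-/- replicates read 21.5, 24.0, 20.9 and 26.6 CPM. WT replicate 4 sat among the KL-/- samples, and the other 3 WT samples were above every KL-/- sample. The means of *Spry1* were 30.4 ± 6.71 and 23.3 ± 2.61 CPM, a KL-/- to WT ratio of 0.767 (0.600 to 0.981), with a log2 fold change of −0.38 ± 0.16 (SE). Its unadjusted p was 0.0371 and its FDR 0.130 (edgeR), and 32.1% of all genes had an unadjusted p under 0.05. The call of *Spry1* turned on 1 library: without WT replicate 4 the log2 fold change was −0.53 with an FDR of 0.0205. With scaling to library totals alone it was −0.50 with an FDR of 0.048. Measured from the median of all genes, *Spry1* stood at −0.37 under both scalings, which holds by construction. A gene model on the other strand, *Gm42922*, overlaps 11.9% of the exonic bases of *Spry1*.

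*Spry2* lies at chr14:105891947-105896819 on the minus strand and encodes an inhibitor acting at several points between receptor and ERK. It read 12.7, 17.2, 20.3 and 11.1 CPM in WT and 13.6, 12.4, 10.2 and 16.1 CPM in KL-/-. Its samples overlapped over most of their range, with means of 15.3 ± 4.22 and 13.1 ± 2.43 CPM and a log2 fold change of −0.23 ± 0.20 (SE, edgeR FDR 0.466). Without WT replicate 3 the log2 fold change of *Spry2* was −0.058 and without WT replicate 4 it was −0.36, neither past the threshold.

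*Spry4* lies at chr18:38586265-38601268 on the minus strand and was the scarcest Sprouty. It read 6.82, 8.46, 9.91 and 6.49 CPM in WT and 4.92, 7.40, 4.81 and 12.6 CPM in KL-/-. The lowest and the highest values of *Spry4* were both KL-/- samples, the latter KL-/- replicate 4. The means of 7.92 ± 1.58 and 7.42 ± 3.63 CPM gave a log2 fold change of −0.093 ± 0.30 (SE, edgeR FDR 0.855), whose sign turned when WT replicate 3, KL-/- replicate 1 or KL-/- replicate 3 was left out (0.036, 0.074 and 0.066).

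The proportions of the Sprouty genes were close between the genotypes. Per length, *Spry1* made up 57.4% ± 4.20 of the summed *Spry1*, *Spry2* and *Spry4* level in WT and 54.6% ± 3.45 in KL-/-. *Spry2* made up 34.4% ± 3.51 and 36.4% ± 2.76, and *Spry4* 8.21% ± 0.942 and 9.06% ± 2.85, with all 3 shares overlapping between genotypes. *Spry3* was not analysed here.

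*Dusp6*, the cytoplasmic ERK phosphatase, had nearly equal means and a wide spread within each genotype. It lies at chr10:99263231-99267489 on the plus strand. WT samples read 15.9, 23.2, 25.2 and 14.4 CPM, and KL-/- samples read 14.7, 24.7, 12.3 and 25.9 CPM. Each genotype thus held a pair of samples near the bottom and a pair near the top of the same range. The means of *Dusp6* were 19.7 ± 5.33 and 19.4 ± 6.88 CPM, and the log2 fold change was −0.021 ± 0.27 (SE, edgeR FDR 0.965), with an interval of −0.62 to 0.57. Its sign turned without WT replicate 2 (0.066), WT replicate 3 (0.12), KL-/- replicate 1 (0.099) or KL-/- replicate 3 (0.14).

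*Etv5*, a PEA3-family activator induced by ERK, lies at chr16:22381313-22439570 on the minus strand. The 4 WT samples read 15.3, 17.9, 19.2 and 13.7 CPM, and the 4 KL-/- samples read 21.0, 24.3, 21.6 and 21.0 CPM. Every KL-/- sample was above every WT sample, as was the case in one direction or the other for 19.7% of all genes. The means of *Etv5* were 16.5 ± 2.51 CPM in WT and 22.0 ± 1.60 CPM in KL-/-, with a log2 fold change of 0.41 ± 0.11 (SE) and an FDR of 0.0394 (edgeR). It ranked 1430 of 12551 genes by p, and 20.2% of all genes had a log2 fold change at least as large in either direction.

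The call of *Etv5* lay near the threshold. It stayed positive without each sample in turn, with log2 fold changes of 0.33 to 0.49, but its edgeR FDR remained under 0.05 only without WT replicate 3 (0.0363). Without any other single sample the FDR of *Etv5* was above the threshold: 0.0877, 0.0657 and 0.0674 without WT replicates 1, 2 and 4, and 0.0625, 0.0558, 0.085 and 0.0771 without KL-/- replicates 1 to 4. The fit without KL-/- replicate 3 holds the 7 libraries of 1 batch date and gave *Etv5* a log2 fold change of 0.42. With scaling to library totals alone the log2 fold change of *Etv5* was 0.29 (FDR 0.0881). Measured from the median of all genes it was 0.43 under both scalings, which holds by construction and is no further check.

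**Figure D2:**
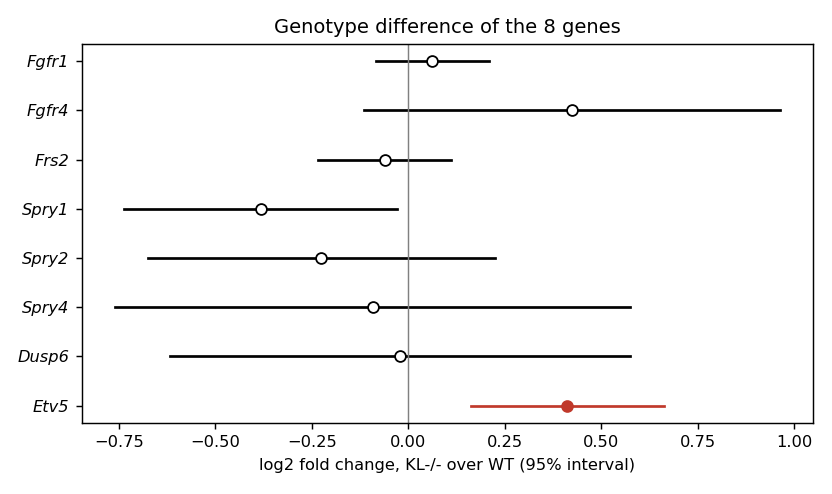
Log2 fold change of KL-/- over WT for the 8 genes, with the 95% confidence interval (edgeR, n = 4 per genotype). The intervals of *Etv5* (0.16 to 0.66) and *Spry1* (−0.74 to −0.028) exclude 0 before adjustment, and that of *Fgfr1* (−0.084 to 0.21) is the narrowest.

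The close relatives of *Etv5* did not pass the test. *Etv4* had 3.34 ± 1.35 CPM in WT and 4.65 ± 0.171 CPM in KL-/- (log2 fold change 0.48, edgeR FDR 0.231), and *Etv1* had a log2 fold change of 0.07 (FDR 0.859). Per length, *Etv5* made up 69.5% ± 5.70 of the summed *Etv1*, *Etv4* and *Etv5* level in WT and 69.1% ± 0.864 in KL-/-. The genes whose profile over the 8 samples lay nearest to that of *Etv5*, by the root mean square difference of log2 CPM centred on each gene's mean, were *Hip1* (0.0931), *Sned1* (0.0946) and *Myl9* (0.0955). *Hip1* passed the test (log2 fold change 0.50, edgeR FDR 0.00830), whereas *Sned1* (0.40, FDR 0.0579) and *Myl9* (0.27, FDR 0.161) did not.

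Within a genotype, the same mice tended to be low or high for several of the 8 genes. WT replicate 4 was the lowest WT sample for 8 of 8 genes, whereas it was the lowest WT sample for 27.4% of all genes. WT replicates 2 and 3 were the 2 highest WT samples for 6 of the 8, all but *Fgfr1* and *Frs2*. That pair was picked after the values were seen, and its share over all genes was not counted. In KL-/- muscle, replicate 3 was the lowest and replicate 4 the highest for the same 4 feedback genes, *Spry1*, *Spry2*, *Spry4* and *Dusp6*, while over all genes replicate 3 was lowest for 24.9% and replicate 4 highest for 21.5%. *Etv5* did not share that order, since KL-/- replicates 1 and 4 both read 21.0 CPM and replicate 2 was its highest.

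**Figure D3:**
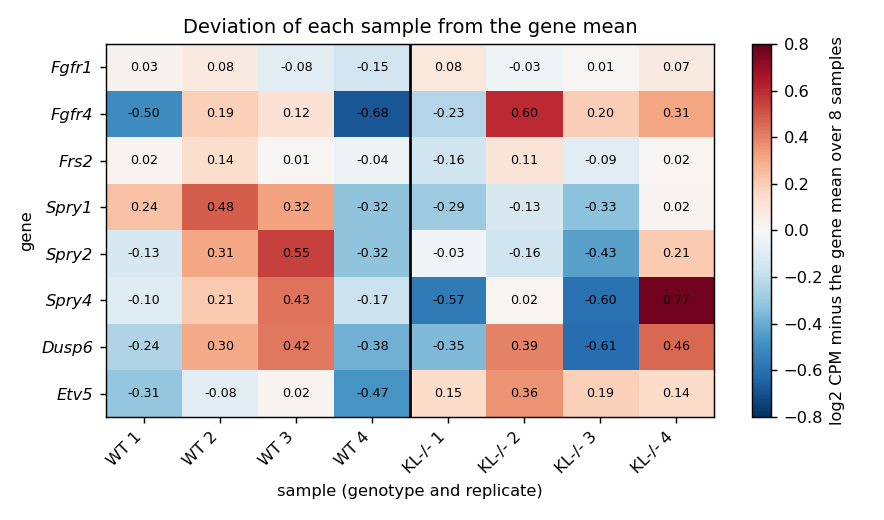
Log2 CPM of each of the 8 genes in each sample, as the deviation from the gene's mean over the 8 samples (red higher, blue lower). WT replicate 4 lies below the mean for all 8 genes, and KL-/- replicates 3 and 4 are the lowest and highest KL-/- samples for the 3 Sprouty genes and *Dusp6*.

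Other measurements moved with these samples. KL-/- replicate 4 also had the highest levels of several immediate early genes, named here after their values were seen: 126 CPM of *Egr1* against 4.68 to 16.1 CPM in the other 7 samples, 55.1 CPM of *Fos* against 3.14 to 13.7 CPM, 14.4 CPM of *Egr3* against 0.531 to 2.15 CPM and 121 CPM of *Dusp1* against 42.0 to 83.3 CPM. None of these 4 genes passed the test between genotypes (edgeR FDR 0.266, 0.261, 0.0918 and 0.498). Some other early ERK targets did not peak in that sample. *Jun* read 112 CPM there and 146 CPM in KL-/- replicate 2, and *Ier3* 9.31 CPM there and 10.7 CPM in KL-/- replicate 3. *Ier5* had its lowest KL-/- value in replicate 4 (16.1 CPM, against a KL-/- maximum of 18.5 CPM). The summed level of 8 markers of fibro-adipogenic cells and fibroblasts was 1328, 2816, 3050 and 812 CPM in WT replicates 1 to 4 and 960, 1349, 429 and 643 CPM in KL-/- replicates 1 to 4. It was thus highest in WT replicates 2 and 3 and lowest for WT in replicate 4, in the same order as *Spry2*, *Spry4*, *Dusp6* and *Etv5* in WT. Summed markers of muscle fibres, satellite cells, macrophages, and pericytes and smooth muscle had that WT order too. Those of endothelial cells, tendon, Schwann cells and adipocytes did not, and the share of all genes with that order was not counted. In KL-/- muscle the fibroblast sum was lowest in replicate 3, as were the Sprouty genes and *Dusp6*. It was highest in replicate 2, whereas those genes were highest in replicate 4. The part of these cells and of the early response in the levels of the 8 genes was not tested.

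The other marker lists stood as follows beside *Etv5* and *Spry1*. Summed satellite cell markers, of interest for *Spry1*, overlapped between genotypes at 61.2 to 89.1 CPM in WT and 71.6 to 82.7 CPM in KL-/-, and 0 of 8 were called. Muscle fibre markers, which check the labelled tissue, summed to 12.7% to 18.9% of the library size after TMM adjustment, with 0 of 8 called. Pericyte and smooth muscle markers (686 to 926 and 772 to 860 CPM, 0 of 7 called) and endothelial markers (476 to 730 and 444 to 490 CPM, *Kdr* lower of 8) overlapped too, as did macrophage markers (59.0 to 123 and 42.9 to 73.0 CPM, 2 of 8 lower) and the fibroblast list (2 of 8 lower). Schwann cell markers did not overlap and were higher in KL-/- (32.2 to 57.5 and 65.2 to 83.1 CPM, 3 of 7 higher), like adipocyte markers (179 to 200 and 207 to 253 CPM, 1 of 4 tested higher). Tendon markers were lower in KL-/- (182 to 227 and 55.8 to 144 CPM, 2 of 6 lower). Over all genes 7.35% were called higher and 6.67% lower, and these lists are short. The 1 adipocyte marker called was *Fabp4*. No tested marker was at 0 in any library, and the part of these cell types in the *Etv5* difference was not tested.

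As CPM per kilobase of counted exons (RPKM), the order of the 8 genes was similar in both genotypes. In WT it ran from *Fgfr1* (12.5 RPKM) and *Spry1* (12.2) through *Spry2* (7.34), *Dusp6* (7.04), *Frs2* (4.68) and *Etv5* (4.32) to *Spry4* (1.73) and *Fgfr4* (1.15). Of the neighbours in that order, *Dusp6* and *Frs2*, and *Etv5* and *Spry4*, did not overlap between their samples, and the other neighbours did. In KL-/- it ran from *Fgfr1* (13.1 RPKM) and *Spry1* (9.33) through *Dusp6* (6.94), *Spry2* (6.26), *Etv5* (5.75) and *Frs2* (4.48) to *Spry4* (1.62) and *Fgfr4* (1.54). There *Fgfr1* stood clear of *Spry1*, and *Etv5* stood clear of *Frs2*, which in WT was the neighbour above it.

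**Figure D4:**
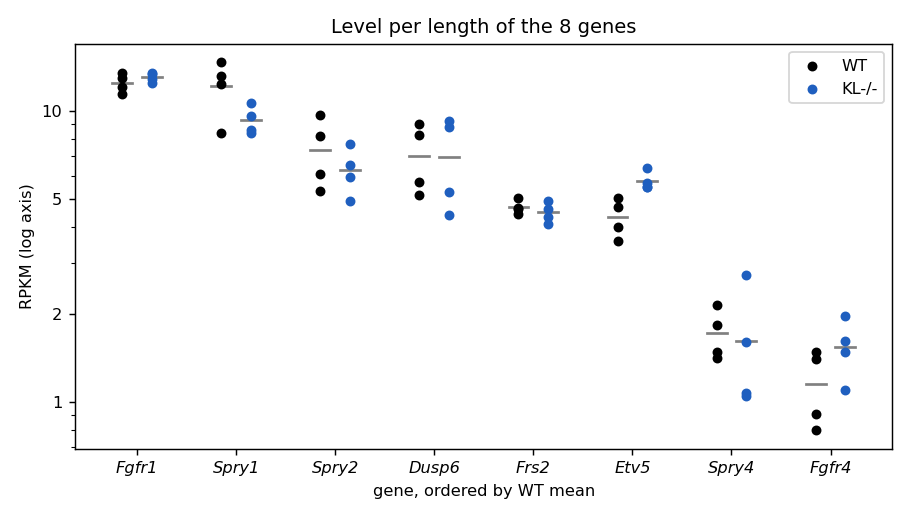
Level per length (RPKM, log axis) of the 8 genes by genotype, with each sample and the mean. The mean of *Fgfr1* is the highest in both genotypes and that of *Fgfr4* the lowest, and the mean of *Etv5* lies below *Frs2* in WT and above it in KL-/-.

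The wider pathway was read from lists of FGF ligands, receptors, heparan sulfate cofactors, the RAS-ERK cascade, its inhibitors, its early targets and other receptor tyrosine kinases, which include the 8 genes. Of 130 tested genes in these lists, 8 were called higher and 9 lower, or 13.1% against the 14.0% of all genes, and their median log2 fold change was −0.017. With scaling to library totals alone, 5 were higher and 28 lower. The lists as a whole thus stood near the background, as the 8 genes did.

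Among 6 ligands tested, 1 was called, the muscle-restricted *Fgf6*, which fell in KL-/- muscle, with 3.93 ± 0.704 CPM in WT and 2.24 ± 0.649 CPM in KL-/- (log2 fold change −0.82, edgeR FDR 0.0388). *Fgf1*, a ligand of all FGF receptors, had 57.4 CPM in WT and 59.2 CPM in KL-/- (FDR 0.868). Among 8 receptors and co-receptors tested, the decoy-like receptor *Fgfrl1*, which binds FGFs and lacks a kinase domain, was the 1 called. It rose in KL-/- muscle: WT samples read 27.2, 23.8, 20.9 and 22.0 CPM and KL-/- samples 32.6, 34.8, 35.6 and 38.4 CPM, with no overlap (log2 fold change 0.59 ± 0.09 SE, edgeR FDR 0.00622). *Fgfr3* averaged 2.90 ± 0.847 CPM in WT and 5.96 ± 3.90 CPM in KL-/-, but its KL-/- samples scattered from 2.62 to 11.4 CPM and it did not pass (FDR 0.119). *Klb* was not analysed here. Of 22 heparan sulfate genes, *Hs6st2* was called higher (0.71, FDR 0.0492) and *Ext1* lower (−0.33, FDR 0.0491), and neither of the 2 FGF homologous factors was called.

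Among 31 adaptors and cascade genes, which include *Frs2*, the kinase *Araf* rose (log2 fold change 0.31, edgeR FDR 0.00933) and the RAS-inactivating *Nf1* fell (−0.46, FDR 0.0217). The 18 tested inhibitors, which include the Sprouty genes and *Dusp6*, had a median log2 fold change of −0.11, and 3 of them were called, 16.7% against 14.0% of all genes. Of these, the Sprouty-related RAS inhibitors *Spred1* (18.5 ± 2.31 to 13.2 ± 2.51 CPM, −0.49, FDR 0.0497) and *Spred3* (−0.94, FDR 0.0303) fell, and *Dusp7*, a close relative of *Dusp6*, rose (24.8 ± 5.67 to 40.6 ± 9.57 CPM, 0.71, FDR 0.0368). *Spred2* did not pass (−0.50, FDR 0.0825), and *Dusp9* was not analysed here.

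Among 23 ETS factors and early ERK targets tested, *Etv5*, *Ier5* (log2 fold change 0.59, edgeR FDR 0.00485) and *Myc* (1.21, FDR 0.0435) were called higher and *Ets1* lower (−0.81, FDR 0.0138), with a median over the list of 0.24. The 4 called were 17.4% of the list, against 14.0% of all genes. Among 20 other receptor tyrosine kinases, which feed the same cascade, *Igf1r* was higher (0.72, FDR 0.0343) and *Kdr* (−0.90, FDR 0.00781), *Ret* (−1.52, FDR 0.0200) and *Ddr2* (−0.77, FDR 0.0489) were lower, together 20% of that list and again near the background. Of the 16 called genes besides *Etv5*, 5 stayed under an FDR of 0.05 without each sample in turn (*Araf*, *Ets1*, *Fgfrl1*, *Ier5* and *Kdr*), and 0 changed direction.

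**Figure D5:**
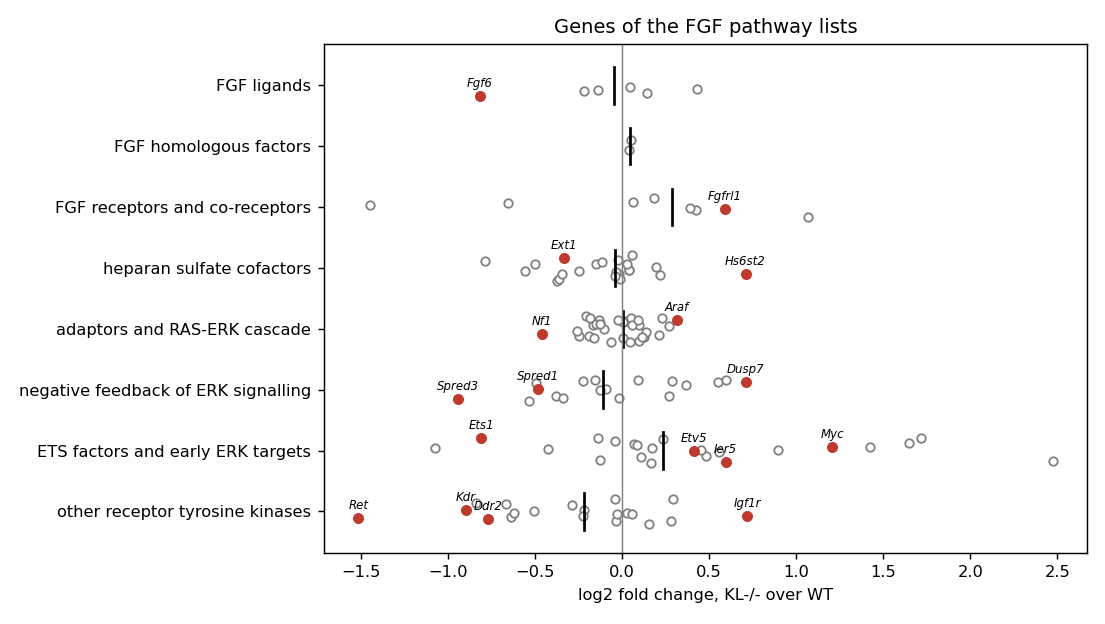
Log2 fold change of KL-/- over WT for each tested gene of the FGF pathway lists, with the median of each list and called genes marked. The medians lie between −0.22 for other receptor tyrosine kinases and 0.29 for FGF receptors and co-receptors, and called genes lie on both sides of 0.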

How the data were processed

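Data are counts per gene from RNA sequencing of TA muscle in 4 WT and 4 KL-/- mice. The deposited counts are whole numbers that the authors obtained by mapping to mm10 with STAR and assigning reads with featureCounts, without normalization and limited to expressed genes. The annotation and strand setting are not given in the sources used here. The paper describes mRNA libraries and the labels total RNA. Groups and replicate numbers came from the labels, and the numbers only name mice. No 2 libraries of a genotype agreed within sampling noise.

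All 12551 genes were fitted in R 4.3.3 with edgeR 4.0.16 (TMM factors, genotype only, quasi-likelihood test, Benjamini-Hochberg FDR under 0.05), after a test on simulated counts. Log2 CPM used a prior count of 2. The Fgfr4 to Fgfr1 ratio was tested by exact permutation of samples. Alternatives were DESeq2 1.42.0, limma-voom (limma 3.58.1), likelihood ratio and edgeR 3 tests, RLE factors, library totals, at least 10 counts in every sample, no filter, the replicate number as a block and each sample left out. The 8 genes and all lists were chosen with earlier results of these data known. Named genes were the 8, called pathway genes up to 20, family relatives, the 3 nearest profiles to *Etv5* and list markers; *Fgf1* and the immediate early genes were added after values were seen. Intervals are at 95%. Gene positions are those of the deposited table. Upstream sequences are from RefSeq (GRCm38.p6) and overlaps from GENCODE vM21.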

Additional observations from a re-analysis of the deposited data

Results flagged for a closer look

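In 48 groups of 4 samples, 24 genes in each genotype, 1 sample stood far from the other 3, while chance alone gives about 1 in 20 such groups. The gene was *Myc*, an early target of ERK and other growth signals, in KL-/- muscle. KL-/- replicate 2 read 11.5 CPM and the other 3 KL-/- samples 3.81 to 5.13 CPM. Without that sample *Myc* remained higher in KL-/- (log2 fold change 0.77, edgeR FDR 0.0141). No sample of the 8 receptor and feedback genes was set apart in this way.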

How the results depend on the processing

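DESeq2, the likelihood ratio test, limma-voom, RLE factors, the edgeR 3 test (chosen after seeing the data) and a minimum of 10 counts per sample (12173 genes) kept *Etv5* called and the other 7 genes not called. The low-count filter of the main fit removed no gene of the 12551. The fit with no filter was therefore the same fit and is no further check. The number of genes called was 1759 by the main test, 2456 by DESeq2, 2124 by the likelihood ratio test and 1715 by the edgeR 3 test, and of the pathway genes DESeq2 called 18 and the likelihood ratio test 14 lower, against 9. Scaling to library totals alone shifted the median over all genes, on the log2 scale, from −0.016 to −0.13. *Fgfr1* was then −0.054 (0.079 and 0.080 from the median), *Spry1* passed (−0.50, FDR 0.048) and *Etv5* did not (0.29, FDR 0.0881), with 0 of the 8 genes higher and 1 lower, 492 higher and 2127 lower among all genes (18.8% of calls higher against 52.4%), 5 higher and 28 lower in the pathway lists, and a log2 ratio of summed adipocyte markers of 0.19 in place of 0.31.

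Same-numbered mice of the genotypes did not deviate together (correlations −0.37 to 0.18, with 1 of 8 samples closest to its own number), so the replicate numbers give no pairing. With the replicate block, *Etv5* had a log2 fold change of 0.42 and an FDR of 0.0563, 0 of the 8 genes were higher, 348 genes were higher and 323 lower, and 3 pathway genes were higher and 3 lower. The *Fgfr4* to *Fgfr1* log2 ratio with that block differed by 0.38, as without it. With equal numbers of mice per genotype that holds by construction and is no further check. Without each sample in turn the ratio differed by 0.23 to 0.55.

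Leaving out each sample in turn gave log2 fold changes of 0.33 to 0.49 for *Etv5*, −0.53 to −0.28 for *Spry1*, −0.36 to −0.058 for *Spry2*, −0.48 to 0.074 for *Spry4* and −0.19 to 0.14 for *Dusp6*. *Spry4* turned to 0.036, 0.074 and 0.066 without WT replicate 3 and KL-/- replicates 1 and 3, and *Dusp6* to 0.066, 0.12, 0.099 and 0.14 without WT replicates 2 and 3 and KL-/- replicates 1 and 3. Of the 8 genes, 0 to 1 were higher and 0 to 1 lower, 404 to 1521 of all genes were higher and 343 to 1234 lower, and 3 to 11 pathway genes were higher and 2 to 12 lower. Calls over all genes moved most without WT replicates 2 and 3 (780 and 775) and KL-/- replicates 2, 3 and 4 (2755, 762 and 778). Except by construction (fewer samples), the cause of these shifts was not tested. *Fgfr4* rests on the lowest counts of the 8 genes, 70 to 135 per library.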
